A study of Mus musculus with 6 samples.

Results

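Chemokines are small secreted proteins that guide cells, and they are grouped by the spacing of the first pair of cysteines near the start of the mature protein. In the CC group these cysteines are adjacent, in the CXC group they are parted by 1 residue, and in the CX3C group by 3. Each binds receptors of the G-protein-coupled kind on the responding cell, and a few atypical receptors take chemokines up without that signal. In bone and marrow they are known for holding blood stem cells in their niche, for drawing neutrophils and monocytes, and for bringing in the precursors of osteoclasts, the cells that resorb bone. The levels of 10 chemokine genes were read here in Ocy454 cells, an osteocyte-like mouse line (osteocytes are the cells that live within bone matrix). The genes were taken by symbol from a table of 39179 genes. They are Cxcl1, Cxcl5, Cxcl12, Cxcl14 and Cxcl16 of the CXC group, Ccl2, Ccl5, Ccl7 and Ccl8 of the CC group, and Cx3cl1.

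All cells were a single-cell subclone of the Ocy454 line and were kept at 37 °C for 14 days. They then received vehicle, 1 nM PTH 1-34 (the active fragment of parathyroid hormone) or 0.5 µM YKL-05-093 (a small molecule that inhibits salt-inducible kinases, or SIKs) for 4 h. The vehicle is PBS with HCl in the treatment labels, while the study's methods name DMSO as the solvent of compounds used on cells and PBS with HCl as that for mice. Each condition had 2 RNA libraries, and no genetic change was compared. PTH acts through a receptor that raises cAMP and turns on protein kinase A, which in turn holds back SIKs. The comparison asked which RNA changes of PTH are shared by a direct SIK inhibitor. The study also reports that this inhibitor acts in vitro on kinases other than SIKs. Some of the genes measured in the study still responded to it in cells depleted of the main SIKs. Whether the changes given below for this inhibitor depend on SIKs was not tested. The libraries are experimental duplicates of 1 clone, so the p-values measure the spread between these libraries only.

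Values are RPKM, reads scaled to the length of the gene and the depth of the library, so that levels can be set side by side between genes. The library totals worked back from the RPKM steps ran from 17505798 to 27983585 reads. A gene was tested where 2 or more of the 6 libraries reached 0.5 RPKM, which held for 14264 genes and for 8 of the 10 chemokines. Each comparison was fitted with limma on log2(RPKM + 0.1) over its 4 libraries, and a gene was called where its adjusted p was under 0.05 and its change above 2-fold. Fold changes are on this scale, so the change of a gene with a low level is understated. The vehicle pair lay further apart than the treated pairs, with a median absolute log2 gap between replicates of 0.309, against 0.0934 for PTH and 0.0867 for YKL-05-093, over 11882 genes with 50 reads or more on average. Among markers of the labelled cell type, Col1a1, Alpl and Pdpn were at 53.1 RPKM or more in every library, while the late osteocyte markers Sost (0 to 3 reads) and Mepe (0 to 4 reads) were near 0 and Dmp1 lay between 0.376 and 1.15 RPKM. Of 8 leukocyte markers, Cd68 alone was tested, at 3.69 to 4.42 RPKM. Ptprc, the pan-leukocyte marker, stayed at or under 0.0263 RPKM, Csf1r at or under 0.133 RPKM, and the summed leukocyte markers ran from 4.08 to 4.29 RPKM in vehicle, 3.91 to 4.63 in PTH and 4.11 to 4.55 in YKL-05-093. Bulk RNA cannot tell fewer cells that express a gene from less RNA in each cell.

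The class of each chemokine can be read in its coding sequence. The stretches below carry 2 cysteine codons, in capitals, of the members on which the results turn. The adjacent pair of the CC group can so be set against the parted pairs of the others. Each pair is the first, past the opening codons, at the spacing that the class in the gene symbol calls for. The spacing was thus set by the search and is shown as an illustration only. The stretches were read on the coding strand from GENCODE M21 transcripts placed on GRCm38.
Ccl2, exon 2, chr11:82036497-82036520, plus strand: ccactcaccTGCTGCtactcattc
Ccl7, exon 2, chr11:82046529-82046552, plus strand: gcatccacaTGCTGCtatgtcaag
Cxcl1, exon 2, chr5:90891487-90891513, plus strand: gagctgcgcTGTcagTGCctgcagacc
Cxcl12, exon 2, chr6:117171499-117171525, plus strand: agctaccgaTGCcccTGCcggttcttc
Cx3cl1, exon 2, chr8:94778042-94778074, plus strand: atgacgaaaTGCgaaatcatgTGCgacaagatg
Ccl2 and Ccl7 share the run TGCTGC, while Cxcl1 and Cxcl12 carry 1 codon between the marked cysteine codons and Cx3cl1 carries 3, the spacings that the search required.

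Ccl2 and Ccl7 are neighbours on chromosome 11 (Ccl2, ENSMUSG00000035385, from 82035571 to 82037453; Ccl7, ENSMUSG00000035373, from 82045712 to 82047525, both on the plus strand in GRCm38). Ccl8 lies in the same cluster, from 82115185 to 82116799. Cxcl1 (ENSMUSG00000029380, chromosome 5, from 90891241 to 90893115, plus strand) and Cxcl5 (from 90759360 to 90761624) lie in a cluster of CXC genes. Cxcl12 (ENSMUSG00000061353) stands alone on chromosome 6, from 117168535 to 117181367 on the plus strand. Cxcl14 is on chromosome 13, from 56288643 to 56296551 on the minus strand, Cx3cl1 on chromosome 8, from 94772009 to 94782427 on the plus strand, and Ccl5 on chromosome 11, from 83525778 to 83530518 on the minus strand. Cxcl16 (chromosome 11, from 70453983 to 70459984, minus strand) shares 552 exon bases with Zmynd15 on the opposite strand. The libraries mark strand, but whether the counting used it is not given in the sources used here, so reads of Cxcl16 and Zmynd15 may not be separated.

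In vehicle, Cxcl14 had the highest level of the 10 genes, with 52.0 and 64.9 RPKM. Ccl2 (22.8 and 40.6), Ccl7 (17.0 and 31.4) and Cxcl12 (21.5 and 20.7) came next, and the libraries of these neighbours in the order overlapped. Cxcl1 (5.72 and 8.47) and Cx3cl1 (7.01 and 6.12) overlapped as well, followed by Ccl5 (5.01 and 5.19) and Cxcl16 (1.59 and 2.48). Ccl8 and Cxcl5 were at or near 0. In both treated conditions Cxcl14 stayed highest, while Cxcl1 moved from the fifth place to the third with PTH and to the second with YKL-05-093. In vehicle Ccl7 overlapped both Ccl2 and Cxcl12, and with PTH the 3 genes were parted, at 46.9 and 49.5 RPKM for Ccl2, 34.7 and 32.0 for Ccl7, and 10.5 and 8.91 for Cxcl12. With YKL-05-093 each of Ccl2 and Cxcl12 overlapped Ccl7 again, around 10 RPKM.

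**Figure D1:**
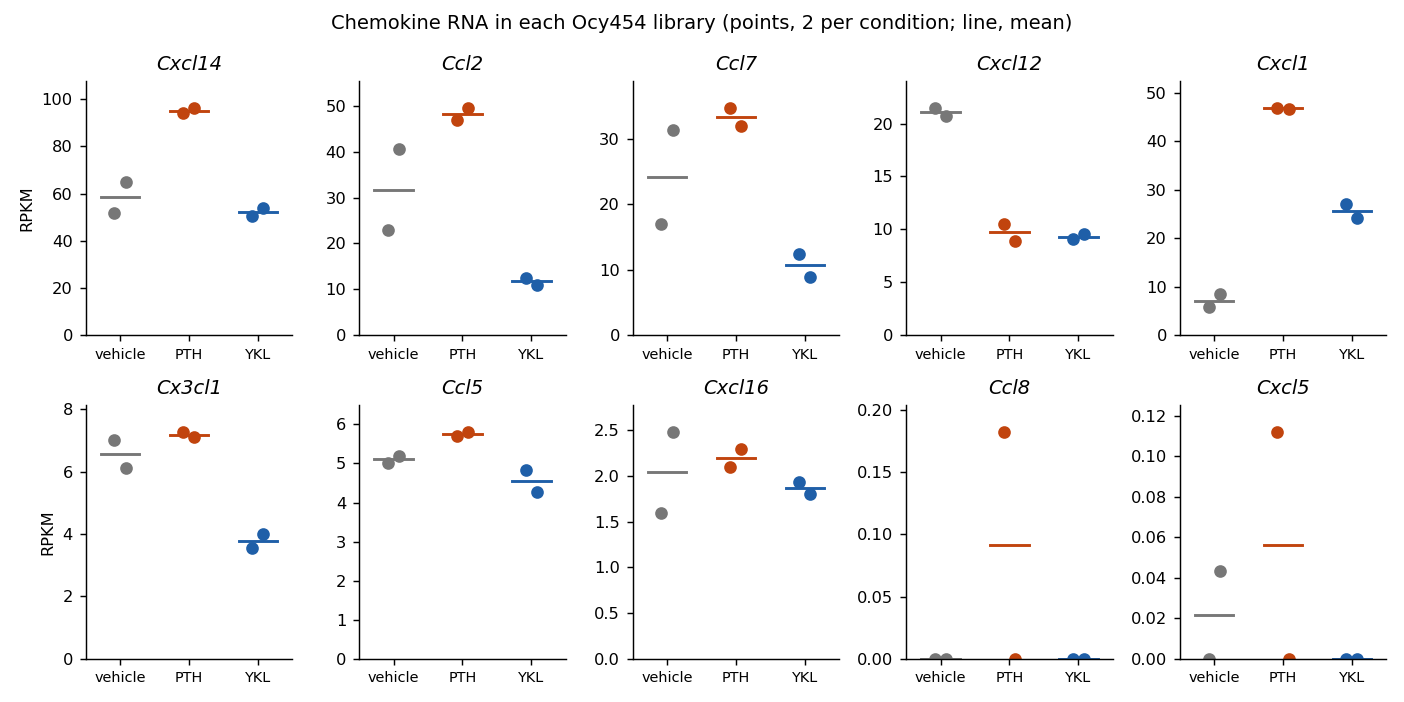
Each panel plots 1 chemokine gene, with RPKM from 0 on a linear y axis that has its own range in each panel, the 3 conditions on the x axis, points for the 2 libraries of a condition and a line for their mean. Cxcl1 is above both vehicle libraries in all 4 treated libraries and Cxcl12 below them, while Ccl2 and Ccl7 are above vehicle with PTH and below it with YKL-05-093, and Ccl8 and Cxcl5 are near 0.

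Against vehicle, 2 of the 8 tested chemokines were called with PTH, Cxcl1 higher and Cxcl12 lower, where 1.91% of all tested genes were called (1.09% higher and 0.813% lower). With YKL-05-093, 2 were called as well, again Cxcl1 higher and Cxcl12 lower, where 0.666% of all genes were called (0.393% higher and 0.274% lower). Both comparisons use the same vehicle libraries. In the direct comparison of PTH with YKL-05-093, which leaves the vehicle libraries out, Ccl2 and Ccl7 were called, both higher with PTH, where 1.21% of all genes were called (0.737% higher and 0.470% lower). The median log2 fold change of the 8 genes was 0.35 with PTH, -0.47 with YKL-05-093 (both against vehicle) and 0.87 between the agents, beside -0.031, -0.042 and 0.014 over all tested genes.

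**Figure D2:**
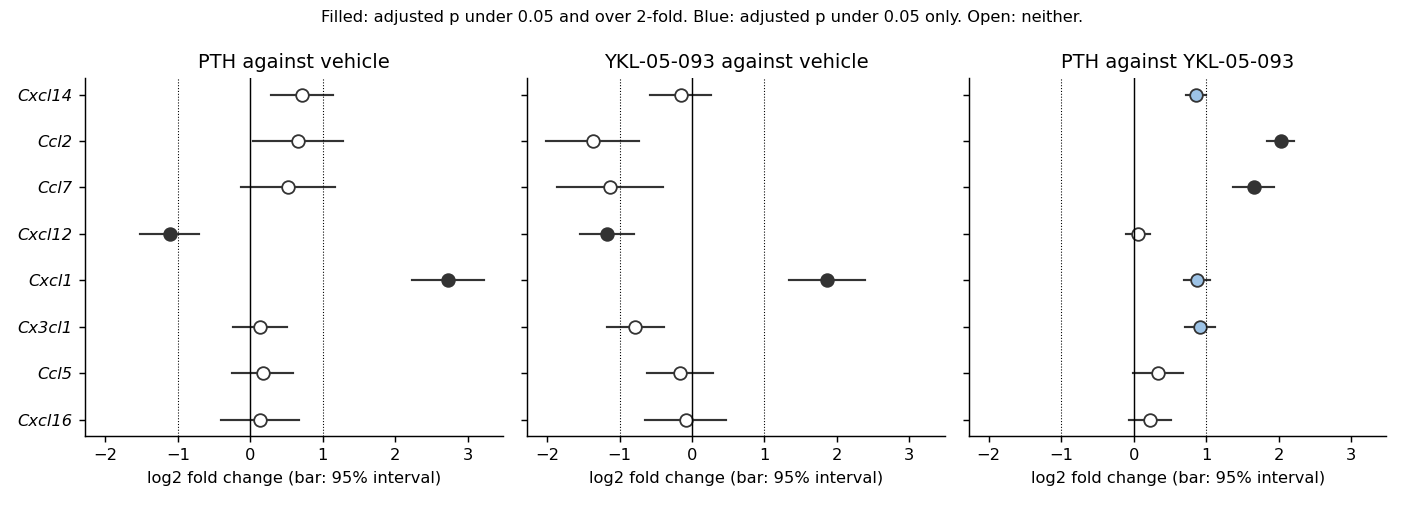
The 3 panels plot the log2 fold change of the 8 tested chemokines in each comparison (x axis, log2 scale; y axis, gene), with bars for the 95% interval of limma and dotted lines at a 2-fold change. Filled points passed both limits, blue points passed the adjusted p limit only and open points neither; Cxcl1 and Cxcl12 are filled in both comparisons with vehicle, and Ccl2 and Ccl7 in the direct comparison.

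Cxcl1, which draws neutrophils through the receptor Cxcr2, had the largest change of the tested chemokines against vehicle with either agent. It stood at 5.72 and 8.47 RPKM in vehicle, 46.8 and 46.7 with PTH, and 27.0 and 24.1 with YKL-05-093. The 3 conditions did not overlap, and the PTH pair lay 0.0026 apart on the log2 scale, a smaller gap than in all but 1.62% of genes. With PTH, Cxcl1 rose 6.63-fold, a log2 fold change of 2.73 (standard error 0.21, 95% interval from 2.23 to 3.23, adjusted p = 0.00168). With YKL-05-093 it rose 3.63-fold, a log2 fold change of 1.86 (standard error 0.22, 95% interval from 1.33 to 2.38, adjusted p = 0.0243). The level with PTH was 1.83-fold that with YKL-05-093, a log2 difference of 0.87 (standard error 0.084, adjusted p = 2.70e-06), which passed on p and not on fold. The PTH call was kept when any 1 library was left out, with log2 fold changes from 2.45 to 3.01. The YKL-05-093 call was lost without vehicle replicate 1 (adjusted p = 0.0571) and without YKL-05-093 replicate 1 (adjusted p = 0.221), with log2 fold changes from 1.58 to 2.14.

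Cxcl1 was the only tested gene of its cluster. Of the other genes of the cluster, Cxcl3 was at 0 in all 6 libraries, and Cxcl2, Cxcl5 and Cxcl15 had at most 4 reads in any library. Cxcl5, like Cxcl1 a ligand of Cxcr2, had 2 reads in vehicle replicate 2, 4 reads in PTH replicate 1 and 0 elsewhere, so it was not tested and a change was not detectable at this depth. Ppbp, which encodes a platelet chemokine, had 0 and 2 reads in vehicle, 9 and 11 with PTH and 5 and 5 with YKL-05-093, and Pf4, another platelet chemokine, had between 1 and 6 reads. Neither reached the filter for a test. Cxcr2 itself had at most 2 reads in any library.

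**Figure D3:**
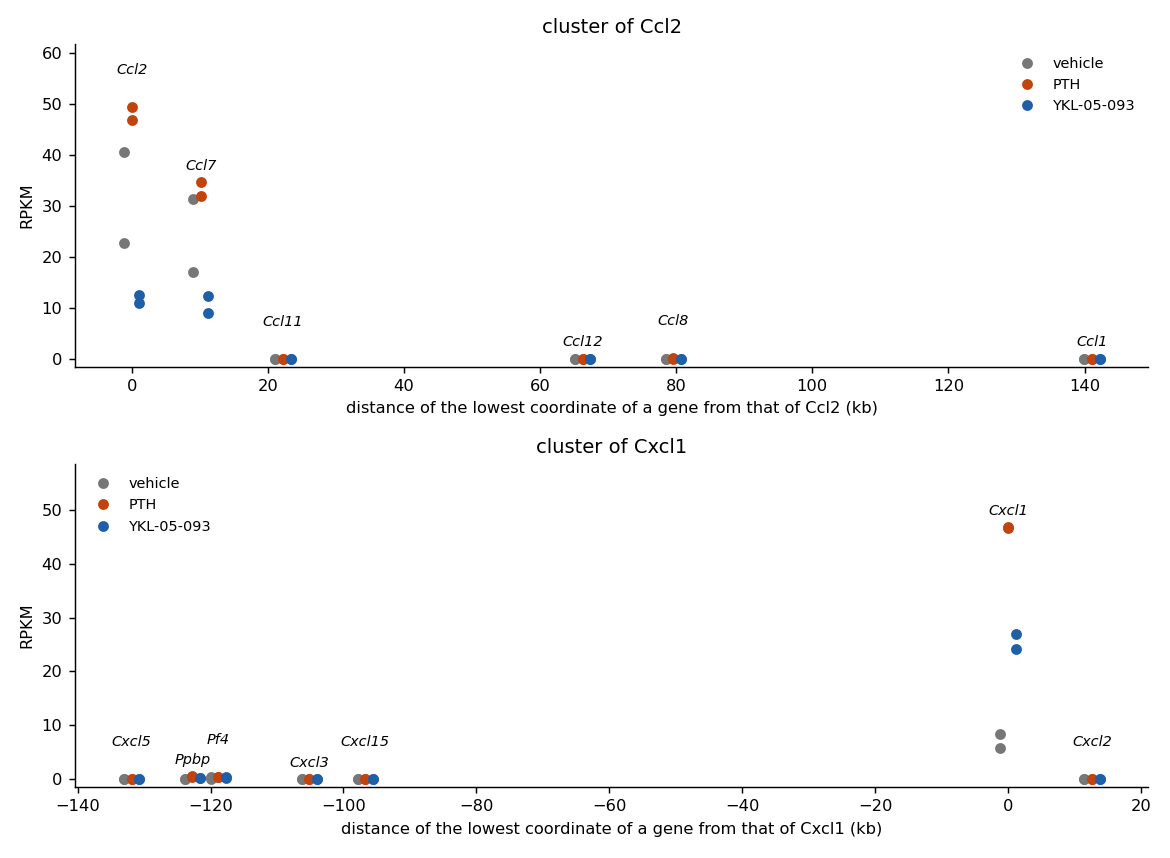
RPKM of each chemokine gene (y axis, linear) is plotted against the distance of its lowest coordinate from that of Ccl2 or Cxcl1 in kilobases (x axis) for the chromosome 11 cluster (top) and the chromosome 5 cluster (bottom), with 1 point per library, colours for the conditions, and the conditions set slightly apart along the x axis so that points can be told apart. In the top panel Ccl2 and Ccl7 have RPKM of 8.94 or more and the other 4 genes are near 0, and in the bottom panel Cxcl1 is well above its neighbours, whose highest value is 0.535 RPKM.

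Cxcl12, the ligand that holds blood stem cells and B cell precursors in the marrow, fell with both agents. It stood at 21.5 and 20.7 RPKM in vehicle, 10.5 and 8.91 with PTH, and 9.07 and 9.52 with YKL-05-093, from at least 1413 reads in each library. All 4 treated libraries lay below both vehicle libraries, and the vehicle pair was only 0.051 apart on the log2 scale. With PTH, Cxcl12 was 2.16-fold lower, a log2 fold change of -1.11 (standard error 0.17, 95% interval from -1.52 to -0.71, adjusted p = 0.0217). With YKL-05-093 it was 2.25-fold lower, a log2 fold change of -1.17 (standard error 0.16, 95% interval from -1.54 to -0.80, adjusted p = 0.0323). Between the agents the libraries overlapped, with a log2 difference of 0.06 and a 95% interval from -0.11 to 0.23 (adjusted p = 0.740), so a difference beyond that interval was not seen and smaller ones remain possible. The call with PTH was lost without PTH replicate 1 (adjusted p = 0.485) or PTH replicate 2 (adjusted p = 0.877), with log2 fold changes from -1.23 to -0.996. The call with YKL-05-093 was lost without YKL-05-093 replicate 1 (adjusted p = 1.00) or replicate 2 (adjusted p = 0.643), with log2 fold changes from -1.21 to -1.14.

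The receptors of Cxcl12 are Cxcr4, which signals, and Ackr3, an atypical receptor that takes Cxcl12 up from the surroundings. Cxcr4 had 3 to 5 reads in each library (0.0555 to 0.0804 RPKM), under the filter. Ackr3 stood at 1.83 and 1.83 RPKM in vehicle, 4.69 and 3.93 with PTH, and 3.99 and 3.86 with YKL-05-093. All treated libraries were above both vehicle libraries, opposite to Cxcl12. Ackr3 rose with PTH by 1.19 on the log2 scale (standard error 0.17, adjusted p = 0.0180), a call that was lost without either PTH library (highest adjusted p = 0.476) and kept without vehicle replicate 1 or without vehicle replicate 2. The call was also lost with a pseudocount of 1 (0.90, adjusted p = 0.0227), which brought it under the fold limit, with no filter on low values (adjusted p = 0.104) and with a trend on the mean value (adjusted p = 0.0566). Its log2 fold change with YKL-05-093 was 1.06 (standard error 0.16, adjusted p = 0.0512), just short of a call, and it was called without vehicle replicate 2 (adjusted p = 0.0282). The agents differed by 0.13 (adjusted p = 0.578). Of the 23 receptors listed (24 identifiers), Ccr10 and Ackr4 were the only others tested, at 0.365 to 0.895 and 0.206 to 0.593 RPKM, and neither was called. Of the 3 tested identifiers, limma called 1 with PTH, 0 with YKL-05-093 and 0 in the direct comparison. Over all tested genes it called 1.91%, 0.666% and 1.21%. With YKL-05-093 1 was called by voom on the recovered reads, and 0 were in the direct comparison. An unadjusted p under 0.05 in limma was reached by 2, 1 and 2 of the 3, against 13.3%, 8.66% and 22.3% of all tested genes.

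**Figure D4:**
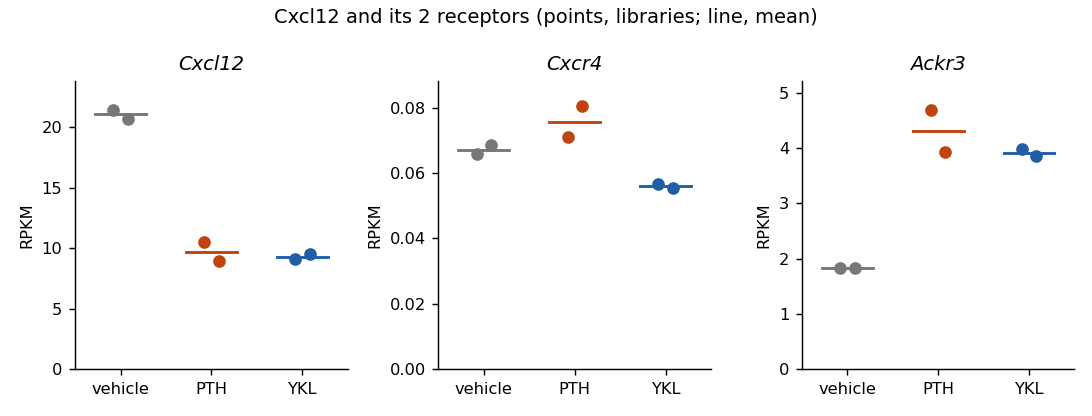
RPKM (y axis, linear, from 0, with its own range in each panel) of Cxcl12, its signalling receptor gene Cxcr4 and its atypical receptor gene Ackr3 is plotted by condition (x axis), with points for the 2 libraries and a line for their mean. Cxcl12 is lower and Ackr3 higher in the 4 treated libraries than in vehicle, and Cxcr4 stays below 0.1 RPKM.

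Cxcl14, a chemokine made at a steady level by many tissues, had the highest RPKM of the members in every library. It stood at 52.0 and 64.9 RPKM in vehicle, 94.1 and 96.2 with PTH, and 50.6 and 54.0 with YKL-05-093. The PTH libraries lay above all others, and the vehicle and YKL-05-093 libraries overlapped. Against vehicle, the log2 fold change was 0.71 with PTH (standard error 0.18, 95% interval from 0.28 to 1.14, adjusted p = 0.126) and -0.15 with YKL-05-093 (95% interval from -0.57 to 0.27, adjusted p = 0.885), so neither was called. In the direct comparison, Cxcl14 was 1.82-fold higher with PTH, a log2 difference of 0.86 (standard error 0.066, adjusted p = 2.71e-07), which passed on p and not on fold.

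Ccl2 draws monocytes, among them precursors of osteoclasts, through the receptor Ccr2. It stood at 22.8 and 40.6 RPKM in vehicle, 46.9 and 49.5 with PTH, and 12.5 and 11.0 with YKL-05-093, from 288 to 1436 reads. The 3 conditions did not overlap, with the PTH pair highest and the YKL-05-093 pair lowest. The vehicle libraries differed by 0.83 on the log2 scale, a wider gap than in 95.9% of genes. Against vehicle neither change passed: the log2 fold change was 0.66 with PTH (standard error 0.27, 95% interval from 0.036 to 1.28, adjusted p = 0.343) and -1.37 with YKL-05-093 (standard error 0.27, 95% interval from -2.01 to -0.72, adjusted p = 0.108). Between the agents, Ccl2 was 4.08-fold higher with PTH, a log2 difference of 2.03 (standard error 0.088, 95% interval from 1.84 to 2.22, adjusted p = 4.41e-10). Leaving out 1 library moved this difference only from 1.94 to 2.12. The call was lost without either PTH library, as was every call between the agents, so that loss is not particular to Ccl2. In 1 fit of all 6 libraries, the YKL-05-093 change of Ccl2 was called (adjusted p = 0.0343), and without vehicle replicate 2 the PTH change was called (log2 fold change 1.07, adjusted p = 0.00598). Without vehicle replicate 1 the PTH log2 fold change was 0.25 (adjusted p = 0.132).

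Ccl7, a close relative of Ccl2 that binds Ccr2 and other receptors, followed the same order. It stood at 17.0 and 31.4 RPKM in vehicle, 34.7 and 32.0 with PTH, and 12.4 and 8.94 with YKL-05-093. Again the 3 conditions did not overlap, and the vehicle libraries differed more (0.88 on the log2 scale) than in 97.0% of genes. Against vehicle, the log2 fold change was 0.52 with PTH (95% interval from -0.13 to 1.17, adjusted p = 0.501) and -1.13 with YKL-05-093 (95% interval from -1.86 to -0.40, adjusted p = 0.260), and neither was called. Without vehicle replicate 1 these log2 fold changes were 0.085 with PTH (adjusted p = 0.638) and -1.57 with YKL-05-093 (adjusted p = 0.0994), and without vehicle replicate 2 they were 0.96 (adjusted p = 0.00891) and -0.69 (adjusted p = 0.138). Between the agents, Ccl7 was 3.15-fold higher with PTH, a log2 difference of 1.65 (standard error 0.13, 95% interval from 1.37 to 1.94, adjusted p = 3.79e-07). This call, too, was lost without either PTH library, as was every call between the agents. With 1 library left out the difference ran from 1.42 to 1.89. The ratio of Ccl2 to Ccl7 RPKM was 1.34 and 1.29 in vehicle, 1.35 and 1.55 with PTH, and 1.01 and 1.23 with YKL-05-093, so that it stayed between 1.01 and 1.55.

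The other genes of the chromosome 11 cluster were at or near 0. Ccl12 and Ccl1 were at 0 in all libraries, Ccl11 had a value above 0 in PTH replicate 1 only, and so did Ccl8, which encodes another monocyte attractant (0.182 RPKM). A single value leaves the number of reads behind it open, and a change of Ccl8 was not detectable at this depth. Ccr2, the receptor of Ccl2 and Ccl7, had at most 1 read in any library.

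Ccl5, which draws T cells and monocytes, stood at 5.01 and 5.19 RPKM in vehicle, 5.71 and 5.81 with PTH, and 4.84 and 4.28 with YKL-05-093. The conditions did not overlap, but the steps were small. The log2 difference from vehicle was 0.17 with PTH (95% interval from -0.25 to 0.59, adjusted p = 0.765) and -0.16 with YKL-05-093 (95% interval from -0.62 to 0.29, adjusted p = 0.889), and PTH differed from YKL-05-093 by 0.33 (95% interval from -0.012 to 0.68, adjusted p = 0.244).

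Cx3cl1 and Cxcl16 differ from the rest in that they are made as membrane-bound proteins and are shed by proteases. Cx3cl1, the ligand of Cx3cr1 on monocytes and osteoclast precursors, stood at 7.01 and 6.12 RPKM in vehicle, 7.27 and 7.10 with PTH, and 3.55 and 4.00 with YKL-05-093. The YKL-05-093 libraries lay below all others, while the PTH libraries lay just above those of vehicle. Against vehicle, the log2 fold change was 0.13 with PTH (95% interval from -0.24 to 0.51, adjusted p = 0.800) and -0.78 with YKL-05-093 (standard error 0.17, 95% interval from -1.18 to -0.39, adjusted p = 0.134). Between the agents, Cx3cl1 was 1.88-fold higher with PTH, a log2 difference of 0.91 (standard error 0.096, adjusted p = 7.11e-06), which passed on p and not on fold. Cxcl16 stood at 1.59 and 2.48 RPKM in vehicle, 2.10 and 2.29 with PTH, and 1.93 and 1.80 with YKL-05-093. Both treated pairs of Cxcl16 lay within the range of the vehicle pair. Its log2 differences were 0.13 (95% interval from -0.41 to 0.68), -0.09 (95% interval from -0.65 to 0.47) and 0.22 (95% interval from -0.070 to 0.51) in the 3 comparisons, and the sign against vehicle turned when 1 vehicle library was left out (-0.17 for PTH without vehicle replicate 1, and 0.21 for YKL-05-093 without vehicle replicate 2).

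In the direct comparison, then, 5 of the 8 tested chemokines had an adjusted p under 0.05 at any fold, Ccl2, Ccl7, Cx3cl1, Cxcl1 and Cxcl14, all 5 higher with PTH, where 10% of all tested genes passed in either direction. Against vehicle, Cxcl1 and Cxcl12 remained the 2 that passed at any fold with each agent, where 2.19% of all genes passed with PTH and 0.666% with YKL-05-093. In 7 of 8 the PTH libraries lay above both YKL-05-093 libraries, as they did for 26.3% of all genes, and in 0 of 8 below, against 23.7%. The exception was Cxcl12, whose libraries overlapped. Against vehicle, the PTH libraries lay above in 6 and below in 1 of the 8 (19.1% and 24.0% of all genes), and the YKL-05-093 libraries above in 1 and below in 5 (15.7% and 22.1%). At an unadjusted p under 0.05 there were 4 of 8 with PTH (13.3% of all genes), 5 of 8 with YKL-05-093 (8.66%) and 5 of 8 in the direct comparison (22.3%).

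The summed level of the 10 genes was 133 and 180 RPKM in vehicle, 248.4 and 248.5 with PTH, and 122 and 118 with YKL-05-093. The sum was higher in the PTH libraries than in all others, and higher in the vehicle libraries than in those of YKL-05-093. This order was not tested, and the vehicle libraries lay far apart. Cxcl14, Ccl2 and Ccl7, which hold a large part of the sum, were not called against vehicle with either agent. Cxcl14 made up 36.1% to 45.9% of the sum in every library. The share of Cxcl1 was 4.31% and 4.71% in vehicle, 18.8% and 18.8% with PTH, and 22.2% and 20.5% with YKL-05-093, while that of Cxcl12 was 16.2% and 11.5%, then 4.24% and 3.59%, then 7.44% and 8.09%. The ratio of Cxcl1 to Cxcl12 RPKM thereby moved from 0.267 and 0.409 in vehicle to 4.45 and 5.24 with PTH and 2.98 and 2.53 with YKL-05-093. Ccl2 and Ccl7 together held 30.1% and 40.0% of the sum in vehicle, 32.9% and 32.8% with PTH, and 20.4% and 17.0% with YKL-05-093.

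**Figure D5:**
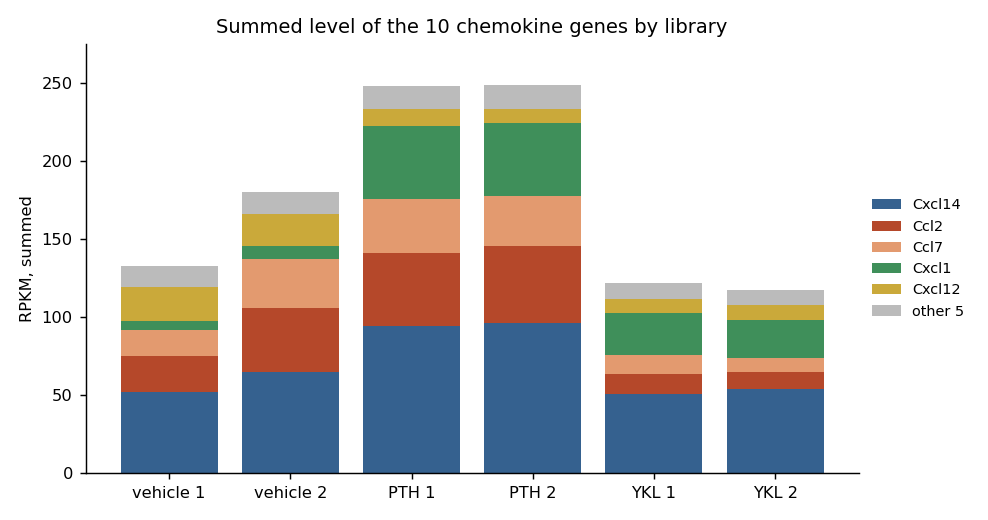
Stacked bars give the RPKM of the chemokine genes summed in each of the 6 libraries (y axis from 0; x axis, condition and replicate), with Cxcl14, Ccl2, Ccl7, Cxcl1 and Cxcl12 in their own colours and the other 5 genes in grey. The PTH bars reach 248 RPKM and those of YKL-05-093 end at 122 and 118, with a wider Cxcl1 band and a thinner Cxcl12 band in all treated libraries than in vehicle.

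Because Cxcl1 and Cxcl12 were the 2 members called with both agents, the 250 bases before their start were read from the RefSeq promoter table (GRCm38.p6), in capitals where a motif was found on either strand. The table holds promoters of 5 members, and Ccl2, Ccl5, Ccl7, Cxcl5 and Cxcl16 have no entry.
Cxcl1, chr5:90890995-90891244, plus strand: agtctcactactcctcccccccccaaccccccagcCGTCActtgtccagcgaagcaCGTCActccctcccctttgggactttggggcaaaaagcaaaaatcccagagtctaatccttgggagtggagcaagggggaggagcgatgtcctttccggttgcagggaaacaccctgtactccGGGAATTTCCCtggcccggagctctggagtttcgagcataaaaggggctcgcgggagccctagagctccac
Cxcl12, chr6:117168285-117168534, plus strand: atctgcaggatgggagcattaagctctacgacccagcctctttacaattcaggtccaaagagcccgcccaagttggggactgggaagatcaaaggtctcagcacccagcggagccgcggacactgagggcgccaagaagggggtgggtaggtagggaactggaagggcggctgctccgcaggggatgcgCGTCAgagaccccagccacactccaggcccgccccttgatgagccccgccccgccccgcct
The motifs searched were TGACG, the core that the cAMP-responsive factor CREB binds, its full palindrome TGACGTCA, which contains TGACG, the AP-1 site TGANTCA, the TATA box TATAAA, and the named motifs kappaB and MEF2. In the Cxcl1 window, TGACG was found 2 times on the minus strand, at -215 to -211 and at -194 to -190 from the RefSeq start, and it reads CGTCA on the printed strand. A kappaB match lay at -71 to -62 on the plus strand and an overlapping one at -70 to -61 on the minus strand. The Cxcl12 window held 1 TGACG match, at -61 to -57 on the minus strand, and no kappaB match. Of 32851 promoter windows of this length in the table, 17.8% held TGACG, 7.25% kappaB, 1.55% TGACGTCA, 6.75% TGANTCA, 12.4% TATAAA and 2.92% MEF2. The G and C share was 59.2% for Cxcl1 and 64.4% for Cxcl12, against a median of 52.4%. These matches describe letters in a window and not bound sites.

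The genes whose levels followed the called members most closely over the 6 libraries were named from 11881 other tested genes with 50 reads or more on average, by Pearson's r of log2(RPKM + 0.1). For Cxcl1 they were Crem (r = 0.9996), Pon3 (0.998) and Nxn (0.994). Crem, which encodes a cAMP-responsive transcription factor, had 0.890 and 1.10 RPKM in vehicle, 2.92 and 2.94 with PTH, and 2.13 and 1.96 with YKL-05-093, the same order of conditions as Cxcl1 over a smaller range. For Cxcl12 they were Set (0.999), Hs6st1 (0.995) and Vac14 (0.995), and Hs6st1, which encodes a heparan sulfate sulfotransferase, had 4.43 and 4.33 RPKM in vehicle, 2.73 and 2.36 with PTH, and 2.36 and 2.65 with YKL-05-093. For Ccl2 they were Tuft1 (0.992), Eva1c (0.990) and Ccl7 (0.988), and for Ccl7 they were Ada (0.989), Ccl2 (0.988) and Gtf2f2 (0.986). Ccl2 and Ccl7 were thus among the 3 closest genes to each other. The 6 points are 3 pairs of libraries that all genes share, so many genes with the same order of conditions reach a high r.

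Most other chemokine ligand genes were at or near 0. Of 30 further ligand genes (33 identifiers), 17 identifiers were at 0 in all libraries and 4 were tested, Cxcl10, Ccl9, Ccl25 and Cxcl9. In limma 0 of the 4 were called in any comparison, with 0 at an unadjusted p under 0.05 against vehicle with either agent, 2 in the direct comparison, and 0 calls by voom. Over all tested genes limma called 1.91% with PTH, 0.666% with YKL-05-093 and 1.21% between the agents. The shares at an unadjusted p under 0.05 were 13.3%, 8.66% and 22.3%. Cxcl10, an interferon-induced T cell attractant, had the highest level, with 6.07 and 8.30 RPKM in vehicle, 8.76 and 8.65 with PTH, and 6.11 and 4.10 with YKL-05-093. Its difference between the agents was 0.78 on the log2 scale, higher with PTH (standard error 0.16, adjusted p = 0.00305), which passed on p and not on fold. Ccl9 lay between 0.746 and 1.32 RPKM and Ccl25 between 0.799 and 1.14.

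Of 7 listed proteases that shed or trim chemokines, 6 were tested and Mmp13 was the 1 gene called, higher with PTH. Over all tested genes 1.91% were called with PTH against vehicle and 1.21% between the agents. Mmp13, a collagenase, stood at 0.343 and 0.228 RPKM in vehicle, 2.81 and 1.53 with PTH, and 0.240 and 0.145 with YKL-05-093. Only its PTH libraries reached the filter of 0.5 RPKM, so Mmp13 was tested only because it was high there. It had 16 and 17 reads in vehicle and 13 and 8 with YKL-05-093. Mmp13 rose with PTH by 2.52 against vehicle (standard error 0.34, adjusted p = 0.0131) and by 2.92 against YKL-05-093 (standard error 0.31, adjusted p = 6.88e-06) on the log2 scale. The call against vehicle was lost with no filter on low values (adjusted p = 0.132) or a trend on the mean value (adjusted p = 0.0665). With YKL-05-093 its log2 fold change was -0.40 (adjusted p = 0.867). For YKL-05-093 against vehicle 0 of the 6 were called by limma or voom, where limma called 0.666% of all tested genes. An unadjusted p under 0.05 in limma was reached by 2 with PTH, 1 with YKL-05-093 and 1 between the agents. The shares over all tested genes were 13.3%, 8.66% and 22.3%. Adam10 (8.16 to 11.9 RPKM), a sheddase of Cx3cl1 and Cxcl16, and Mmp14 (143 to 203 RPKM), which activates Mmp2, were not called. Mmp2, which trims Cxcl12 and Ccl7, stood at 149 and 128 RPKM in vehicle, 238 and 237 with PTH, and 212 and 218 with YKL-05-093. Its treated libraries all lay above both vehicle libraries. Mmp2 was not called either, with log2 fold changes of 0.78 with PTH (adjusted p = 0.106) and 0.64 with YKL-05-093 (adjusted p = 0.302).

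The factor NF-kappaB is a known inducer of Cxcl1, Ccl2 and Ccl7. Of 20 listed genes of its pathway and its inflammatory targets, 17 were tested, and over all tested genes 1.91% were called with PTH, 0.666% with YKL-05-093 and 1.21% between the agents. With PTH 1 was called, Bcl3, a nuclear cofactor of NF-kappaB. Bcl3 had 0.145 and 0.0909 RPKM in vehicle, 0.706 and 0.762 with PTH, and 0.251 and 0.473 with YKL-05-093. It rose with PTH by 1.95 on the log2 scale (standard error 0.34, adjusted p = 0.0341). Only its PTH libraries reached the filter of 0.5 RPKM, so Bcl3 was tested only because it was high there. Its vehicle libraries held 7 and 7 reads. The Bcl3 call was lost with a pseudocount of 1 (0.63, adjusted p = 0.154), no filter on low values (adjusted p = 0.102) or a trend on the mean value (adjusted p = 0.209), and its value was 2.64 with voom. With YKL-05-093 1 was called, Csf1, the macrophage and osteoclast growth factor. It stood at 20.3 and 17.9 RPKM in vehicle, 17.3 and 16.9 with PTH, and 6.65 and 7.24 with YKL-05-093. Csf1 fell with YKL-05-093 by 1.44 on the log2 scale (standard error 0.16, adjusted p = 0.02), and the call was lost without vehicle replicate 1 (adjusted p = 0.0506) or either YKL-05-093 library (adjusted p = 0.520 and 0.195), and with no filter on low values or a trend on the mean value (adjusted p = 0.142 and 0.0684). In the direct comparison Csf1 (1.29, adjusted p = 8.60e-09) and the NF-kappaB inhibitor gene Nfkbie (1.04, adjusted p = 1.27e-04) were called, both higher with PTH. At any fold 5 of the 17 passed there, against 10% of all tested genes, all higher with PTH, and the other three were Vcam1, Lif and Nfkb1, named after their values were seen. The median log2 fold change of the list was -0.014, -0.11 and 0.22 in the 3 comparisons, against -0.031, -0.042 and 0.014 over all tested genes. An unadjusted p under 0.05 in limma was reached by 6, 8 and 10 of the 17 in these comparisons. Over all tested genes the shares were 13.3%, 8.66% and 22.3%. Nfkbia (28.2 to 41.5 RPKM), Nfkb2 (24.9 to 31.5) and Rela (26.2 to 32.1) had the highest levels and were not called.

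Interferon response genes, to which Cxcl10 and Ccl5 also belong, showed no call. Of 13 listed, 12 were tested and 0 were called by limma or voom in any comparison, with 4, 2 and 6 at an unadjusted p under 0.05, against 13.3%, 8.66% and 22.3% of all tested genes. At any fold, 4 passed on adjusted p in the direct comparison, against 10% of all tested genes, namely Ifit1, Isg15, Oas1a and Irf1, all higher with PTH, of which Ifit1 and Oas1a were named after their values were seen. Isg15, an antiviral ubiquitin-like protein, had 16.1 and 21.2 RPKM in vehicle, 19.2 and 18.0 with PTH, and 14.1 and 9.85 with YKL-05-093 (difference between the agents 0.66, adjusted p = 0.00734). Irf1 (19.3 to 25.1 RPKM) and Ifit2 (11.9 to 17.8 RPKM) had the other high levels of the list.

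Of 12 markers of bone cells, 9 were tested and 3 were called with PTH, against 1.91% of all genes, and their part in the chemokine values was not tested. With PTH, Pdpn rose by 1.44 (adjusted p = 0.0148) and Bglap by 1.58 (adjusted p = 0.0286), and Sp7 fell by 1.97 (adjusted p = 0.00190) on the log2 scale. With YKL-05-093 0 were called by limma or voom, where limma called 0.666% of all tested genes. An unadjusted p under 0.05 in limma was reached by 6 with PTH, 4 with YKL-05-093 and 6 between the agents. The shares over all tested genes were 13.3%, 8.66% and 22.3%. In the direct comparison Bglap was higher with PTH by 1.16 (adjusted p = 4.49e-06), and Sp7 was lower with PTH by -1.14 (adjusted p = 1.42e-06). At any fold 5 of the 9 passed there, against 10% of all tested genes, and the other three were Pdpn (0.82), higher with PTH, and Pth1r (-0.88, adjusted p = 2.02e-06) and Runx2 (-0.69, adjusted p = 8.68e-06), both lower with PTH and named after their values were seen. The PTH call of Bglap was lost with no filter on low values, a trend on the mean value or median centring (adjusted p = 0.212, 0.0782 and 0.0701) and its call between the agents in 1 fit of all 6 libraries (adjusted p = 0.0889). With no filter, the PTH calls of Pdpn (adjusted p = 0.112) and Sp7 (adjusted p = 0.0558) were lost too. The summed bone cell markers ran from 533 to 630 RPKM in vehicle, 689 to 771 with PTH and 605 to 708 with YKL-05-093. Of 4 endothelial markers, Kdr was the 1 tested, at 0.476 to 1.72 RPKM, and it rose with YKL-05-093 by 1.42 (adjusted p = 0.0378), a call lost without vehicle replicate 1 or either YKL-05-093 library (adjusted p = 0.0816, 0.543 and 0.0986) and with a pseudocount of 1 (0.75, adjusted p = 0.101), a filter of 0.1 RPKM, none or a trend on the mean value (adjusted p = 0.0571, 0.198 and 0.210), while Cdh5 was at 0 in every library. None of 3 adipocyte markers reached the filter, and they summed to at most 0.0579 RPKM. Cd68 was not called in any comparison by limma or voom, and its unadjusted p was under 0.05 in 0 of 3. The PTH calls of the genes outside the 10 (Mmp13, Bcl3, Pdpn, Bglap and Sp7) were lost without PTH replicate 1 or PTH replicate 2. So were the calls of Csf1, Nfkbie, Mmp13, Bglap and Sp7 in the direct comparison, where every call over all genes was lost in these fits. Nfkbie also fell short there without YKL-05-093 replicate 1 (0.90, adjusted p = 0.0490) and Sp7 without YKL-05-093 replicate 2 (-0.94, adjusted p = 0.0182), both on the fold limit. Bglap has near-identical copies in the mouse genome, so its reads may be split or shared and its values are uncertain.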

How the data were processed

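RNA of 6 libraries was depleted of ribosomal RNA, made into directional libraries and sequenced as paired 50-base reads. STAR was the authors' aligner, with mm10 (GRCm38) as the genome, and HTSeq 0.6.0 with Ensembl release 75 gave the reads of each gene. The values they deposited are RPKM, on a linear scale and with 1 library per column. CASAVA 1.7 is also named, without its role, in the submitters' processing notes. How gene lengths were taken, and whether counting used strand, is not given in the sources used here.

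Whole reads were worked back from the RPKM steps. All 26214 genes above 0 came out whole to within 0.001 reads, which the search was set to reach; in simulated libraries 95.2% of genes were recovered. The reads sum to 99.7% of the totals and were used to describe depth and to model the spread. A value of 3 reads or fewer was taken as the floor, which covers counting error only.

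Two-sided tests were run with limma 3.58.1 (R 4.3.3) on log2(RPKM + 0.1), with genes at 0.5 RPKM or more in 2 or more libraries, a prior variance with a trend on mean log2 reads and Benjamini-Hochberg adjustment over all genes tested in a comparison. They were also run on simulated libraries that all had the same spread. That run does not cover the wider gap of the vehicle pair. The smallest p of an exact two-sided permutation test of 2 libraries against 2 is 0.333. Alternatives were pseudocounts of 0.01 and 1, filters of 0.1 RPKM and none, a trend on the mean value, voom on the reads, 1 fit of all libraries, a replicate block, median centring, and each library left out.

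The members, gene lists and test settings were chosen with earlier results of these data known. Named genes are all members, every called gene of a list or marker set, the 3 genes with the highest mean RPKM of each list (ligands, receptors, proteases, NF-kappaB and interferon response), and the 3 tested genes most correlated with each called member. Other genes of the 2 clusters, the tested ligand Cxcl9, receptors of members, some markers and genes that passed at any fold are named beyond this rule, after their values were seen. Positions are from GENCODE M21 (GRCm38) and promoters from RefSeq.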

Additional observations from a re-analysis of the deposited data

How the results depend on the processing

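Of 312 refits of the chemokine genes, 287 kept direction and side of the limits, 17 lost a call, 4 gained one and 4 turned sign. The sign turned for genes near 0: with 1 library left out, Cxcl16 ranged from -0.17 to 0.44 with PTH and from -0.39 to 0.21 with YKL-05-093, turning without vehicle replicate 1 and vehicle replicate 2 respectively, Cxcl14 from -0.31 to 0.0077 with YKL-05-093, turning without vehicle replicate 2, and Cxcl12 from -0.060 to 0.18 between the agents, turning without PTH replicate 1. Of 351 refits of called genes of the lists, 289 kept both, 54 lost a call, 7 gained one and 1 turned sign, Nfkbie with PTH, from -0.14 to 0.012, turning without PTH replicate 1.

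Of the 2 chemokines called with PTH against vehicle, 0 were left with no filter on low values (adjusted p = 0.0583 for Cxcl1 and 0.105 for Cxcl12, beside 2341 genes at an unadjusted p under 0.05), and 1 to 3 with 1 library left out: 1 without either PTH library, 2 without vehicle replicate 1 and 3 without vehicle replicate 2, where Ccl2 was added. Of the 2 called with YKL-05-093, 1 was left with a pseudocount of 1 (Cxcl12 at adjusted p = 0.0521), 0 with no filter (0.198 for Cxcl1 and 0.158 for Cxcl12, beside 1735 genes at an unadjusted p under 0.05), 0 with a trend on the mean value (0.0927 and 0.0860), and 0 to 2 with 1 library left out: 0 without YKL-05-093 replicate 1, 1 without YKL-05-093 replicate 2 or vehicle replicate 1, and 2 without vehicle replicate 2. Of the 2 called between the agents, 0 to 2 were left with 1 library left out, 0 without either PTH library (beside 2132 and 2021 genes at an unadjusted p under 0.05 over all genes), and 5 with no limit on the fold. In these fits the lone library of a condition is taken to vary like the other pair. The cause was not tested.

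Over all genes, the 272 calls of PTH against vehicle became 0 with no filter, 160 with a trend on the mean value, and 14 to 671 with 1 library left out (14 without either PTH library, 671 without vehicle replicate 2). The 95 of YKL-05-093 against vehicle became 55 with a pseudocount of 1, 57 with a filter of 0.1 RPKM, 0 with no filter, 6 with a trend on the mean value, 173 in 1 fit of all libraries, and 11 to 320 with 1 library left out (42 and 320 without vehicle replicate 1 and 2, 11 and 35 without YKL-05-093 replicate 1 and 2). The 172 between the agents became 98 with a pseudocount of 1, 102 in 1 fit of all libraries, 1427 with no limit on the fold, and 0 to 155 with 1 library left out (0 without either PTH library, 110 without YKL-05-093 replicate 2).

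No effect shared by libraries of the same replicate number was seen: the replicate differences of 2 conditions correlated at -0.034, -0.054 and -0.049 over 14264 genes. This cannot tell whether the libraries were prepared as pairs. With the replicate number as a block, 441 genes were called with PTH, 215 with YKL-05-093 and 196 between the agents, and 2, 4 and 2 chemokines. Ccl2 (adjusted p = 7.29e-06) and Ccl7 (adjusted p = 3.76e-04) were added for YKL-05-093, where the main fit gave 0.108 and 0.260. The block adds a term to a fit of 4 libraries and leaves fewer degrees of freedom, so these calls are given as a check of settings only. A change in a gene with 3 reads or fewer in each library, such as Cxcl2, was not detectable.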
